A study of Mus musculus with 12 samples.

Results

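The axon guidance ligands and receptors measured here are the semaphorins, plexins, neuropilins, ephrins, Eph receptors, Slits and Robos, joined by the netrin gene Ntn1 and its receptor gene Unc5b. The families were taken by symbol in the platform annotation, while Nrp1, Nrp2, Ntn1 and Unc5b were taken by name. This gave 56 genes (133 probes) of the 17655 genes (46114 probes) on the array. Each gene was read from its brightest probe over the 12 arrays. The atria of male mice were profiled on Illumina beadchips (Sentrix Mouse-6), arrays of beads that carry oligonucleotide probes. The 6 Tbx3 mice (Cre4-CT) carried the Nppa-Cre4 transgene, in which the promoter of the atrial peptide gene Nppa drives Cre recombinase, together with the CT construct, whose Tbx3 is switched on by Cre. Tbx3 is a T-box factor and a repressor. The 6 Control mice carried Nppa-Cre4 alone, so both groups had Cre, no group had CT without Cre, and the age of the animals is not stated in the labels. Each array is a biological replicate per the labels.

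Axon guidance proteins were named for steering growing nerve fibres, and the same proteins guide blood vessels, migrating cells and the patterning of the heart. Semaphorins signal through plexins, and the secreted class 3 semaphorins do so with a neuropilin as co-receptor. Netrins bind Dcc and Unc5 receptors, Slits bind Robo receptors, and ephrins, which stay attached to the cell surface, bind Eph receptor tyrosine kinases and can signal in both directions between touching cells.

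Of the 56 genes, 7 were higher and 2 were lower in the Tbx3 atria, and 47 did not pass the test. The genes that rose were the netrin receptor gene Unc5b (2.06-fold), Sema5a (1.94-fold), the netrin gene Ntn1 (1.60-fold), the ephrin gene Efna5 (1.50-fold), Robo1 (1.46-fold), Sema3b (1.39-fold) and Sema3d (1.36-fold). Those that fell were Sema6c (2.72-fold) and the Eph receptor gene Epha4 (2.10-fold). A gene passed where its adjusted p was under 0.05 in limma, with Benjamini-Hochberg adjustment over all probes. In all, 16.1% of the guidance genes passed, against 5.95% of all 17655 genes and 3.45% of all probes, and the shares of all genes that rose and fell were 2.97% and 2.98%. Ntn1 and Unc5b, which both passed, were picked by name without their relatives. Those relatives were read among 18 other ligands and receptors, of which 0 passed. The genes were chosen with earlier results of these data known, so the shares do not test whether guidance genes passed more often. All 9 genes lay above the 75th percentile of probe brightness, where 9 of 30 guidance genes (30.0%) and 963 of 7351 genes (13.1%) passed. The groups of arrays did not overlap for 7 of the 56 guidance genes, against 4.04% of all genes. The median log2 change was -0.02 over the 56 genes and -0.0032 over all genes. The folds assume that the deposited values are natural logs, which their range fits but no source states. Had the table been in base 2, every log2 change would shrink by a factor of 0.693 while the p-values stayed.

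**Figure D1:**
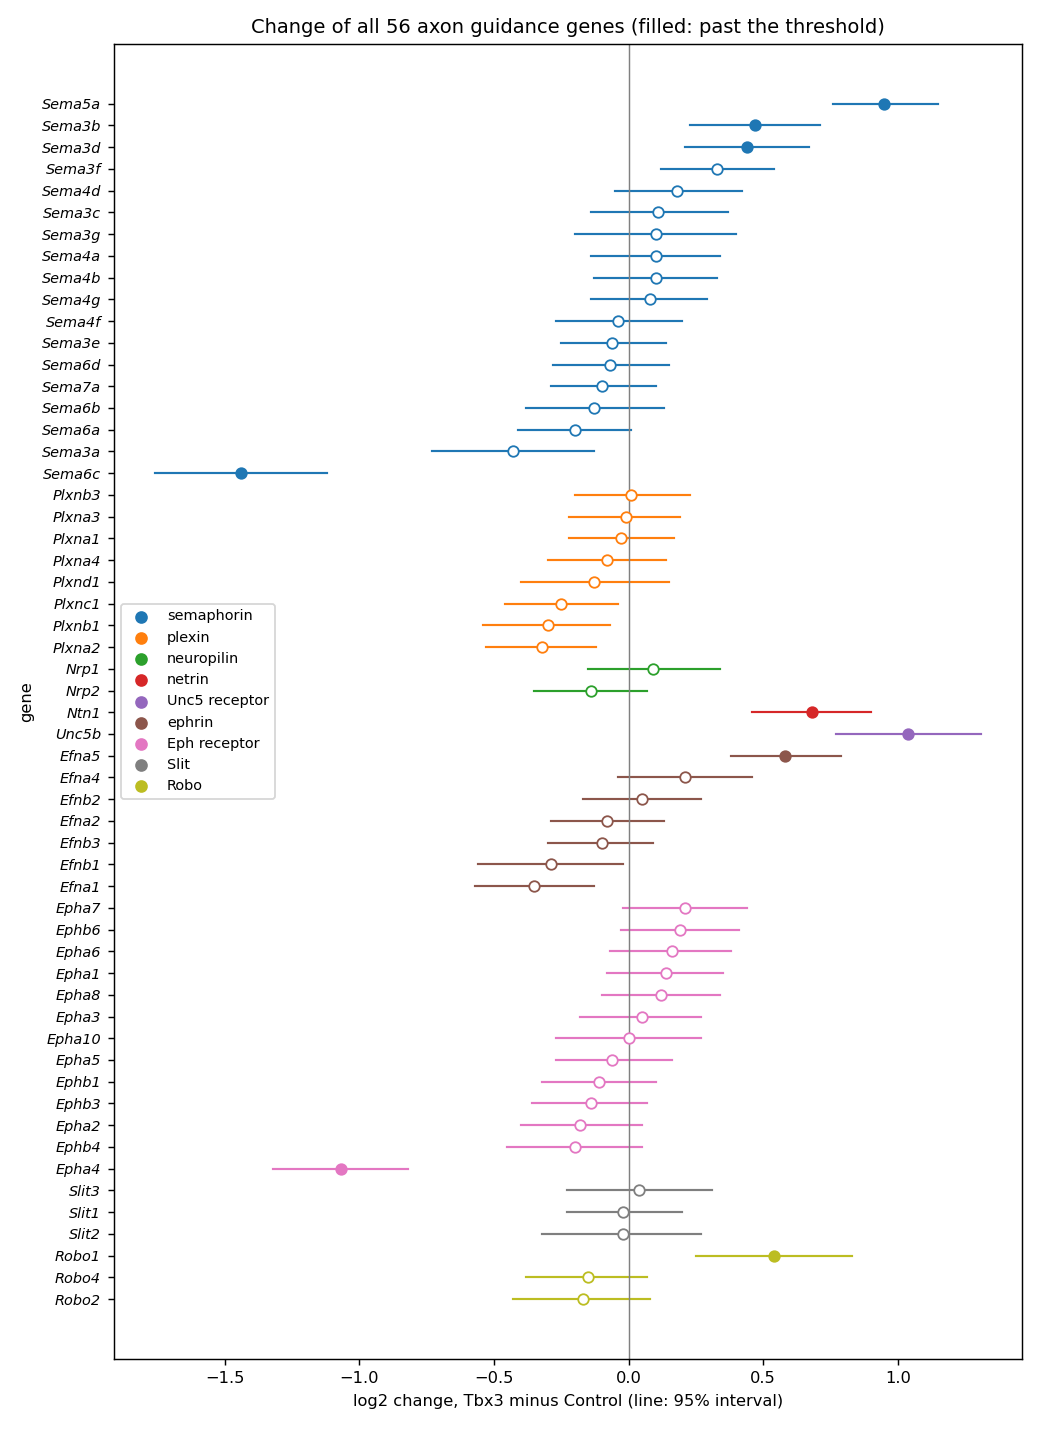
Log2 change of each of the 56 genes (x axis, Tbx3 minus Control) by gene (y axis), coloured by family, with 95% intervals of the fit as lines and filled points for genes past the threshold. The points run from -1.44 for Sema6c to 1.04 for Unc5b, and the plexins, neuropilins and Slits hold no filled point.

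Array facts bear on these values. Correlations between arrays over all probes were 0.970 to 0.980 within groups and 0.963 to 0.976 between groups. The brighter of the 2 probes for Tbx3 itself was lower in the Tbx3 arrays (log2 change -0.42, adjusted p = 0.0263 in limma) and the dimmer had 0.02, and since it is not known here whether either probe reads the construct, Tbx3 does not check the labels. The atrial muscle markers other than Sln were bright in both groups, and the list means with Sln were 13.15 to 13.33 in Control and 12.54 to 12.97 in Tbx3. Sln had mean levels of 6.96 in Control and 6.15 in Tbx3. Myl4 read 15.4 on all 6 Control arrays, as quantile normalization gives probes of equal rank the same value on every array. The atrial muscle markers did not move alike. Nppa, Sln, Ryr2 and Myh6 fell, with log2 changes of -1.35, -0.80, -0.46 and -0.41. Myl7 and Myl4, with -0.26 and -0.24, did not pass, nor did Tnnt2 (0.08) and Actc1 (-0.03). In atrial tissue a lower value can come from fewer cells of a type or from less RNA per cell, and these cannot be told apart.

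The semaphorins held 4 of the 9 genes. Of 18 measured, 3 rose, 1 fell and 14 did not pass, with a median log2 change of 0.09. Sema5a encodes a membrane-bound semaphorin with thrombospondin repeats. Its log2 level in Control had a lowest value of 7.27, a median of 7.30 and a highest of 7.41, and in Tbx3 8.05, 8.27 and 8.44. Every Tbx3 array stood above every Control array, and the Control arrays were tightly grouped (SD 0.05, n = 6). Sema5a rose by 0.95 on the log2 scale (SE 0.10, adjusted p = 1.15e-07). Sema5a has 6 probes on the array, and the other five, at the 9th to 73.8th percentile of brightness, had log2 changes of -0.13 to 0.16 and did not pass. With the mean of all 6 probes the change was 0.18 (adjusted p = 0.135).

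Sema6c encodes a membrane-bound semaphorin of class 6. In Control its level ran from 7.65 through a median of 8.09 to 8.45, and in Tbx3 from 5.86 through 6.68 to 7.13. All Tbx3 arrays lay below all Control arrays, and Tbx3 array 6 was the lowest. Sema6c fell by 1.44 on the log2 scale (SE 0.16, adjusted p = 4.9e-07). Of its other two probes, at the 64.4th and 62.3rd percentile, the first changed by -0.35 on the log2 scale (adjusted p = 0.215) and the second by 0.02 (adjusted p = 0.975). The mean of the 3 probes changed by -0.59 (adjusted p = 0.00508).

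Sema3b and Sema3d encode secreted class 3 semaphorins. For Sema3b the Control levels were 6.69 at the lowest, 6.91 at the median and 7.22 at the highest, and the Tbx3 levels were 7.03, 7.44 and 7.70. For Sema3d they were 6.59, 6.84 and 7.10 in Control and 7.03, 7.32 and 7.50 in Tbx3. In both genes the groups overlapped, with 5 of 6 Tbx3 arrays above the highest Control array for Sema3b and 4 of 6 for Sema3d, and Tbx3 array 2 was the array nearest to the Control mean. The log2 changes were 0.47 (SE 0.12, adjusted p = 0.0171) and 0.44 (SE 0.11, adjusted p = 0.0225). With each array left out in turn the log2 change was 0.41 to 0.55 for Sema3b and 0.39 to 0.49 for Sema3d. Both calls were lost without some single arrays. That of Sema3b was lost without Tbx3 4 (adjusted p = 0.0558), without Tbx3 5 (0.0656), without Control 4 and Tbx3 6 together (0.095) and when its 3 probes were averaged (log2 change 0.19, adjusted p = 0.203). For Sema3d, leaving out Control 3, 4 or 5 or Tbx3 1, 3 or 5 ended the call (adjusted p of 0.0764 at most), and so did the mean of its 3 probes (0.21, adjusted p = 0.175).

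Other class 3 semaphorins did not pass. Sema3f, a ligand of neuropilin 2, had levels of 7.48 to 7.87 in Control and 7.64 to 8.06 in Tbx3, with 4 of 6 Tbx3 arrays above the highest Control array (log2 change 0.33, SE 0.10, adjusted p = 0.0717). In the RefSeq gene order Sema3f lies on chromosome 9 with 3 protein-coding genes between it and Sema3b. Sema3a, which in mice patterns the sympathetic nerves of the heart, changed by -0.43 (adjusted p = 0.122) and is the protein-coding neighbour of Sema3d on chromosome 5. In Control array 3 Sema3a stood at 7.44 against 6.31 to 6.49 in the other Control arrays, and without that array the change was -0.25. Sema3c, needed in mice for division of the outflow tract, had 0.11 (95% interval -0.14 to 0.37), and Sema3e, the ligand of plexin D1, had -0.06. Sema4b, Sema6d, Sema4d, Sema6a and Sema7a had log2 changes of 0.10, -0.07, 0.18, -0.20 and -0.10, with adjusted p of 0.475 to 0.91.

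The promoters of the semaphorins with the largest changes are shown because Tbx3 binds DNA through a T-box motif. The 250 bases before the start of Sema5a (chr15:32244563-32244812, plus strand) and of the downstream of 2 starts of Sema6c (chr3:95164089-95164338, plus strand) come from RefSeq on GRCm38.p6. Capitals mark the 7-letter core of the T-box motif, GGTGTGA, read on either strand and so also as TCACACC, of which Sema5a had none in this window and Sema6c had 1, which begins 214 bases before the start. The window of the upstream Sema6c start did not hold the core.
Sema5a: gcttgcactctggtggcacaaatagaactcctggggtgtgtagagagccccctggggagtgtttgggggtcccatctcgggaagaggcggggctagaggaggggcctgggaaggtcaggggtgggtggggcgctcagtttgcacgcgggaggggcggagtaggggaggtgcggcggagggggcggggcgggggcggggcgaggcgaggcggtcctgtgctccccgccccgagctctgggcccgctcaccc
Sema6c: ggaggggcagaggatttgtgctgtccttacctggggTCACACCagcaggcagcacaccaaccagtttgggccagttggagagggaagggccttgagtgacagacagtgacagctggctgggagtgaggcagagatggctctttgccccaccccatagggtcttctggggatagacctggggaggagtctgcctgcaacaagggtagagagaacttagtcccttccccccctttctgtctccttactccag
In windows of 300 bases, from 250 before to 50 after a start, 3.98% of 32851 promoters held the core. Among the guidance genes 48 of 56 had a window, and 4 of their 61 windows held it, which were single windows of Sema6c, Efna1, Nrp2 and Sema4a. Counted by gene, 4 of the 48 guidance genes held the core in any window, against 4.6% of the 27025 genes with a window. Among the genes past the threshold 7 of 9 had a window, and Sema6c was the only gene of these 7 with the core.

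None of the plexins and neuropilins, the semaphorin receptors read here, passed. Among 8 plexins 0 passed in limma, 3 had an unadjusted p under 0.05, and the log2 changes ran from -0.32 to 0.01. Plxna2, a receptor subunit for class 3 and class 6 semaphorins, had Control levels of 7.77, 7.82 and 8.30 (lowest, median and highest) and Tbx3 levels of 7.50, 7.58 and 7.65. Its groups did not overlap, and Control array 2 was the highest. The log2 change was -0.32 (SE 0.10, adjusted p = 0.0827). Plxnb1, the receptor of Sema4d, and Plxnc1, the receptor of Sema7a, stood at log2 changes of -0.30 (adjusted p = 0.205) and -0.25 (adjusted p = 0.262). Plxnd1, the receptor of endothelium that binds Sema3e, had -0.13 (95% interval -0.40 to 0.15), and Plxna3, Plxna4 and Plxnb3 had -0.01, -0.08 and 0.01. The Plxna1 probe was among the dimmest on the array, at the 0.39th percentile, and its change of -0.03 says little about the gene. Of 2 neuropilins, read from their brightest probes, 0 passed in limma, and 0 had an unadjusted p under 0.05. Nrp1, a co-receptor for class 3 semaphorins and for vascular endothelial growth factor, was bright, with levels of 10.39 to 10.90 in Control and 10.46 to 11.23 in Tbx3 (log2 change 0.09, 95% interval -0.15 to 0.34). The other Nrp1 probes, at the 97.8th and 95th percentile, had 0.09 (adjusted p = 0.897 in limma) and 0.35 (adjusted p = 0.123). Nrp2 had -0.14 (95% interval -0.35 to 0.07).

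Among the guidance genes, the netrin gene Ntn1 and the netrin receptor gene Unc5b both rose. The netrin receptor genes Dcc, Neo1, Unc5a, Unc5c and Unc5d, read from a wider list, did not pass. Their log2 changes ran from -0.27 (Neo1) to 0.11 (Unc5c). Ntn1 encodes netrin 1, a secreted protein related to laminins. Its lowest, median and highest levels were 7.30, 7.38 and 7.74 in Control and 7.91, 8.08 and 8.32 in Tbx3. No array of one group reached the range of the other, and Control array 3 was the highest of its group. The log2 change was 0.68 (SE 0.11, adjusted p = 0.000121). Its other probe lay at the 2.65th percentile and had a change of 0.08, and the mean of both changed by 0.38 (adjusted p = 0.0116). Unc5b encodes a netrin receptor known from blood vessels. In Control Unc5b ran from 8.50 through 8.70 to 8.95, and in Tbx3 from 9.18 through 9.90 to 10.10. All 6 Tbx3 arrays were above the highest Control array, and Tbx3 array 2 was the nearest to Control. The rise was 1.04 on the log2 scale (SE 0.13, adjusted p = 5.82e-06). Unc5b was the only guidance gene with a second probe past the threshold. On that probe the Control levels were 7.35, 7.50 and 7.69, the Tbx3 levels 7.45, 8.18 and 8.67, and the log2 change 0.62 (SE 0.15, adjusted p = 0.0114). The change was 0.97 to 1.16 with each array left out in turn for Unc5b and 0.64 to 0.74 for Ntn1, and both calls were kept each time. The 250 bases before the Unc5b start (chr10:60831582-60831831, minus strand) are shown for the largest rise, and hold no T-box core.
Unc5b: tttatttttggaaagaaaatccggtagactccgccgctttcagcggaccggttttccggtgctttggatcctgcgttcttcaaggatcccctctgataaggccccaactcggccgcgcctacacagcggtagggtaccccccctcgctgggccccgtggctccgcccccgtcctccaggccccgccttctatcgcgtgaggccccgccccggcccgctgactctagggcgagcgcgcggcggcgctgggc

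**Figure D2:**
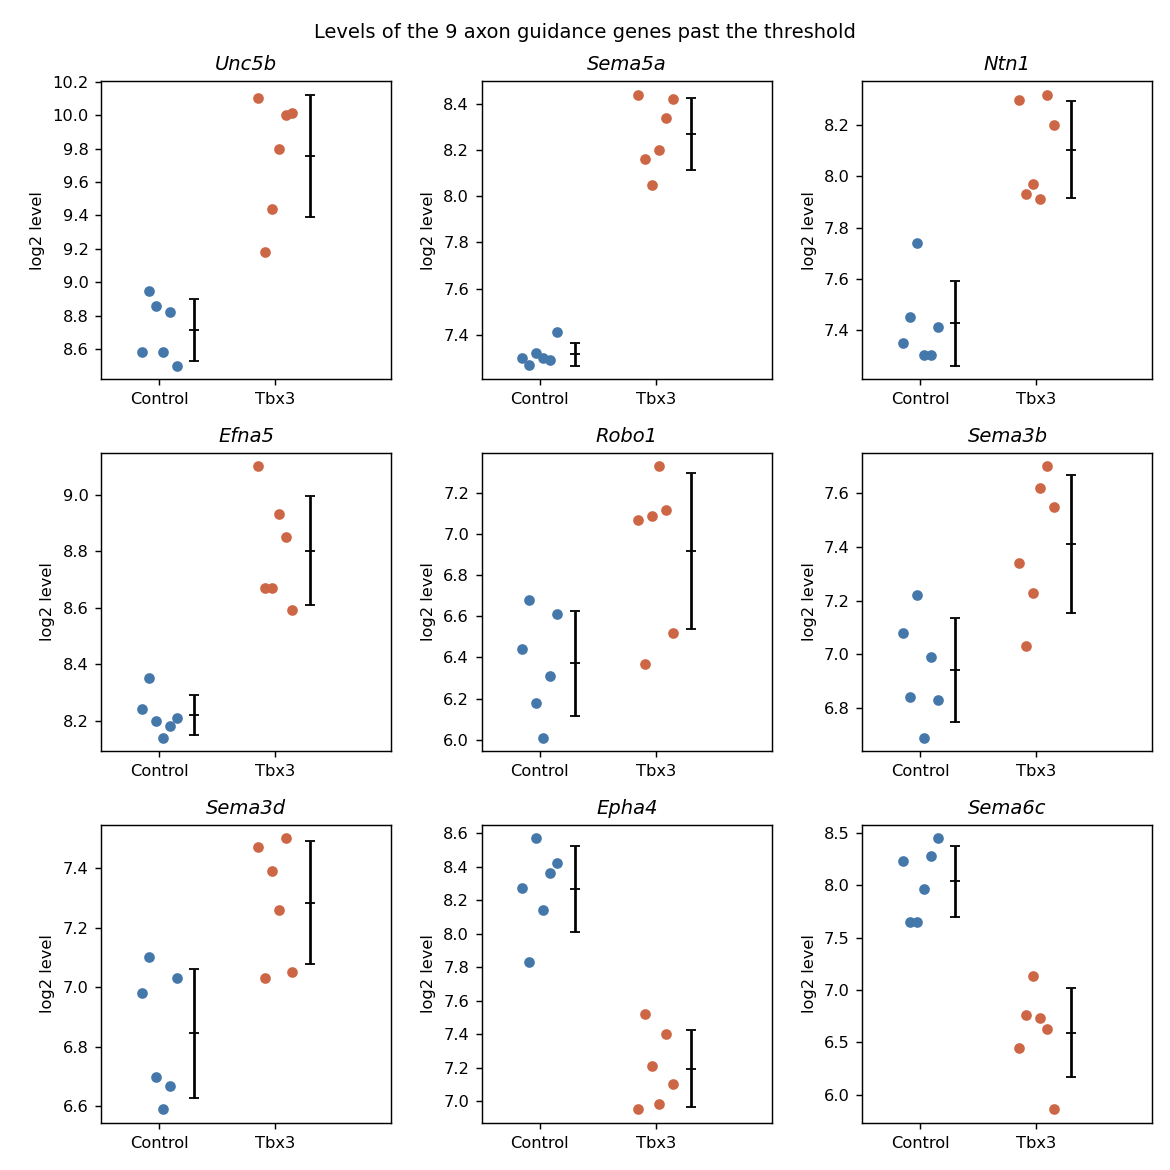
Log2 level (y axis, a separate range in each panel) on each Control and Tbx3 array (x axis) for the 9 genes past the threshold, with the mean and SD of 6 arrays beside the points. In Unc5b, Sema5a, Ntn1, Efna5, Epha4 and Sema6c the groups do not overlap, while in Robo1, Sema3b and Sema3d they do.

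Ephrins and Eph receptors gave opposite calls for a ligand and a receptor. Of 7 ephrins 1 rose and 6 did not pass, and of 13 Eph receptors 1 fell and 12 did not pass. Efna5 encodes an ephrin of the A class, which is held at the membrane by a lipid anchor. It ran from 8.14 through a median of 8.21 to 8.35 in Control and from 8.59 through 8.76 to 9.10 in Tbx3. The ranges were apart, and the Control arrays were close to each other (SD 0.07, n = 6). Efna5 rose by 0.58 on the log2 scale (SE 0.10, adjusted p = 0.00039). Its other probe, at the 28.2nd percentile, had -0.12, and the mean of both changed by 0.23 (adjusted p = 0.182).

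Epha4 encodes a receptor that binds ephrins of both classes. Its Control levels were 7.83, 8.32 and 8.57 (lowest, median and highest), and its Tbx3 levels were 6.95, 7.16 and 7.52. Each Tbx3 array was lower than each Control array, and Control array 2 was the lowest of its group. The log2 change was -1.07 (SE 0.12, adjusted p = 7.77e-07), and -1.16 to -1.01 with each array left out in turn. Epha4 has 1 probe. The bases before its start (chr1:77515089-77515338, minus strand) are shown as the second fall, and hold no T-box core.
Epha4: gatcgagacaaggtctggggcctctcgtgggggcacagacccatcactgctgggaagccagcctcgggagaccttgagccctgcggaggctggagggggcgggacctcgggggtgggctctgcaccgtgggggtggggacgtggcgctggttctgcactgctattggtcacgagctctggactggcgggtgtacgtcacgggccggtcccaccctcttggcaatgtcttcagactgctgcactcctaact

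The other ephrins and Eph receptors stayed below the threshold. Efna1, a ligand of Epha2, had levels of 7.79 to 8.22 in Control and 7.49 to 8.05 in Tbx3, with 5 of 6 Tbx3 arrays below the lowest Control array and Tbx3 array 3 within the Control range (log2 change -0.35, SE 0.11, adjusted p = 0.0661). Efnb1 had a log2 change of -0.29 (adjusted p = 0.371). Efnb2 and Ephb4, known as marks of arterial and venous endothelium, had 0.05 (95% interval -0.17 to 0.27) and -0.20 (95% interval -0.45 to 0.05). Ephb1, Epha7, Epha2 and Ephb3 had -0.11, 0.21, -0.18 and -0.14, with adjusted p of 0.504 to 0.806, and the Epha2 probe was dim, at the 38.4th percentile.

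Among Slits and Robos 1 of 6 genes passed. Robo1 encodes a receptor of Slit proteins. It ran from 6.01 through a median of 6.37 to 6.68 in Control and from 6.37 through 7.08 to 7.33 in Tbx3. The groups overlapped, since Tbx3 arrays 2 and 6 were at 6.37 and 6.52 while the other four were at 7.07 to 7.33. The log2 change was 0.54 (SE 0.14, adjusted p = 0.0237). Leaving out Control 3, 4 or 5 or Tbx3 1, 3, 4 or 5 ended the call (adjusted p of 0.0862 at most), and the mean of the 4 Robo1 probes changed by 0.10 (adjusted p = 0.639). Robo2, the protein-coding neighbour of Robo1 on chromosome 16, had -0.17 (95% interval -0.43 to 0.08), and Robo4, the Robo of endothelium, had -0.15 (95% interval -0.38 to 0.07). The Slits, of which 0 passed in limma and 0 had an unadjusted p under 0.05 on their brightest probes, had log2 changes of -0.02 (Slit1), -0.02 (Slit2) and 0.04 (Slit3). Among dimmer probes, a Slit2 probe had 0.32 (adjusted p = 0.181 in limma) and a Slit3 probe had -0.32 (adjusted p = 0.122). Control array 3 held the highest Slit3 level, 9.43 against 8.51 to 8.80 in the other Control arrays, and without it the Slit3 change was 0.16.

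**Figure D3:**
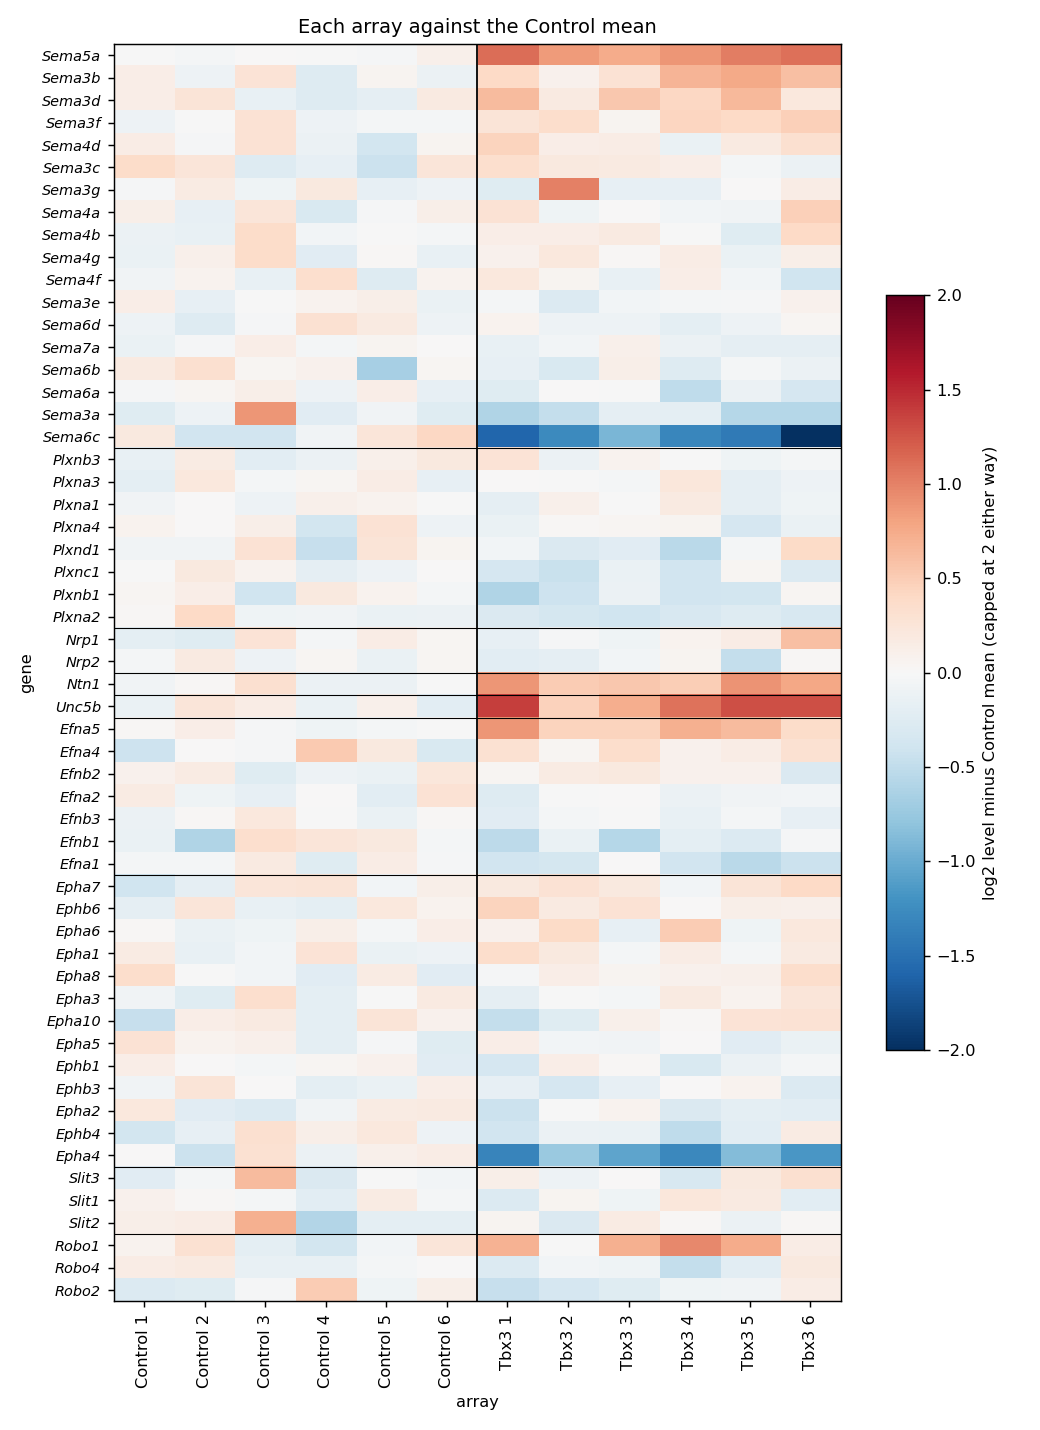
Log2 level of each array (columns) minus the Control mean for the 56 genes (rows), red for higher and blue for lower, with colours capped at 2 and lines between families. Sema5a, Ntn1, Unc5b and Efna5 are red and Sema6c and Epha4 blue in all 6 Tbx3 columns, and Sema3a and Slit3 are red in Control 3.

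The Tbx3 arrays differed in how far they moved. For 5 of the 9 genes (Epha4, Robo1, Sema3b, Sema3d and Unc5b) Tbx3 array 2 was the array nearest to the Control mean. The distance of that array was 0.46 for Unc5b, against 0.72 to 1.38 on the other Tbx3 arrays, and 0.00 for Robo1. For Sema6c and Sema5a the nearest was Tbx3 array 3, at -0.90 and 0.73. Among the Tbx3 arrays, array 2 also had the lowest mean log2 levels of the fibroblast (9.95), Schwann cell (7.17), neuron (5.55), macrophage (7.58) and erythroid markers (10.08), and the highest of the endothelial (8.80), epicardial and mesothelial (7.31) and atrial muscle markers (12.97). The part of these markers in the levels on array 2 was not tested.

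Known ligands were set beside their receptors in 16 pairs. Both genes passed in 2 pairs, 1 gene in 3 pairs and neither in 11. In Ntn1 and Unc5b both rose (0.68 and 1.04), and in Efna5 and Epha4 the ligand rose and the receptor fell (0.58 and -1.07). Sema5a rose beside a Plxna3 change of -0.01, Sema3d rose beside an Nrp1 change of 0.09, and Robo1 rose beside a Slit2 change of -0.02. Bulk tissue does not show whether ligand and receptor sit on neighbouring cells.

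**Figure D4:**
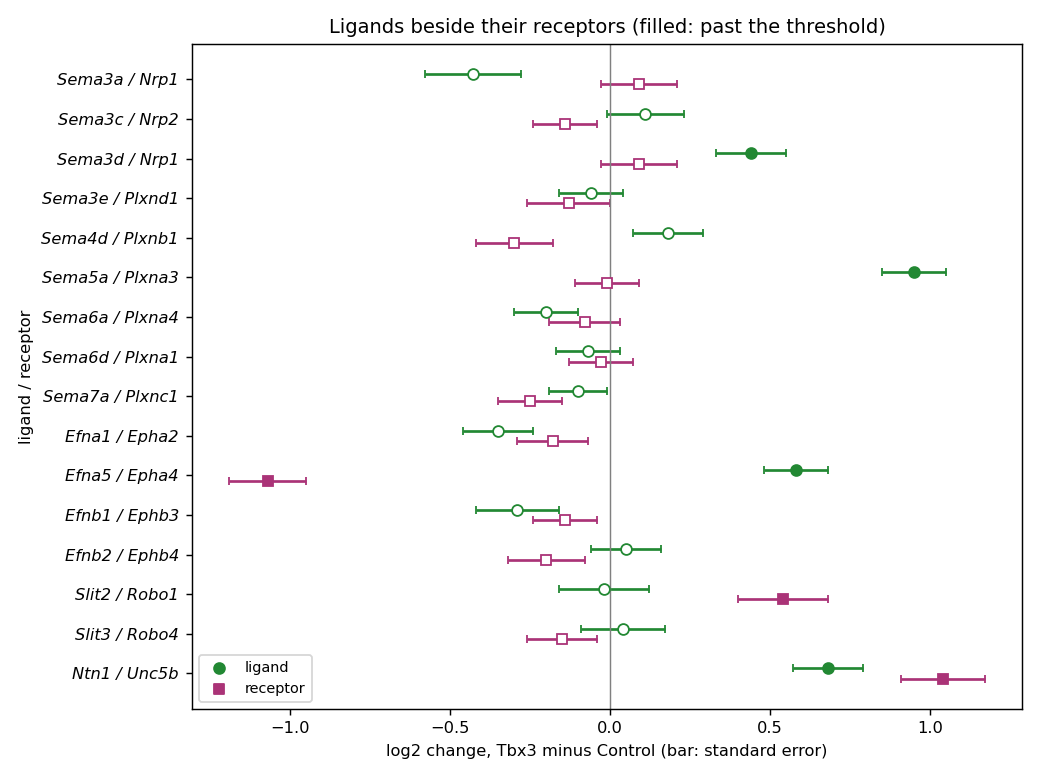
Log2 change, Tbx3 minus Control (x axis), of the ligand (circle) and the receptor (square) in each of 16 pairs (y axis), with the standard error of the fit as bars and filled symbols past the threshold. Filled symbols stand on the same side of 0 for Ntn1 and Unc5b and on opposite sides for Efna5 and Epha4.

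Probes of the same gene did not all pass together. Of the 56 genes 38 have more than 1 probe, and of the 77 probes that were not the brightest of their gene 1 passed, that of Unc5b. Among the 8 genes past the threshold with more than 1 probe, 1 had a second probe that passed, against 121 of 557 such genes (21.7%) over the whole array. The dimmer probes of these 8 genes lay at the 2.65th to 90.5th percentile of brightness, and where each probe lies in its transcript is not known here.

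**Figure D5:**
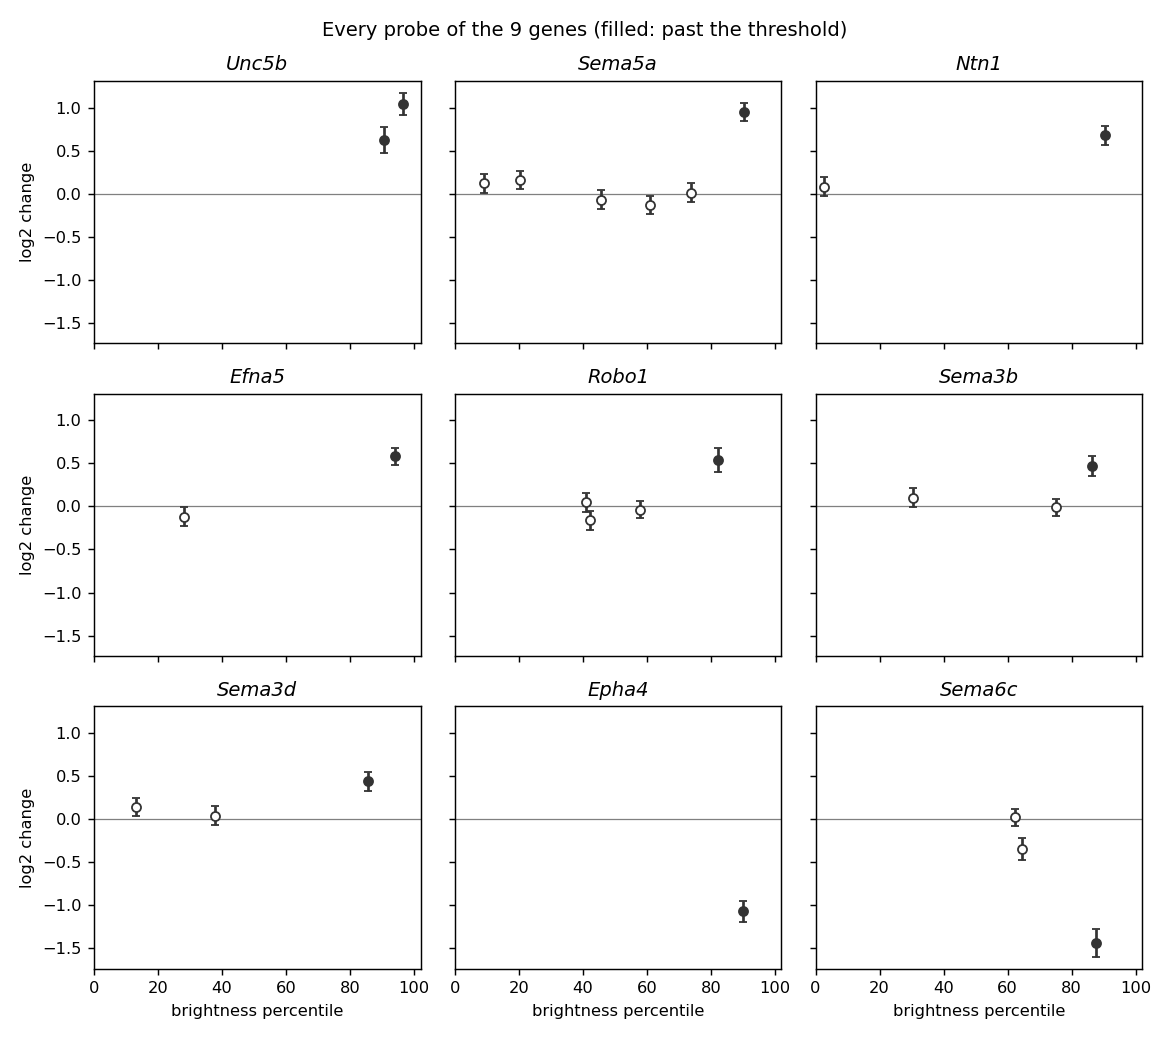
Log2 change with its standard error (y axis) against the percentile of brightness (x axis) for every probe of the 9 genes past the threshold, filled where the probe passed. The brightest probe is filled in each panel, and only Unc5b has a second filled point.

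Further genes of the pathway were read from a list of 64, of which 59 were measured. Among 18 other ligands and receptors 0 passed in limma, while 3 had an unadjusted p under 0.05. These 3, named after their values were seen, were the chemokine gene Cxcl12, with a log2 change of -0.39 (adjusted p = 0.176), the netrin receptor gene Neo1, with -0.27 (adjusted p = 0.218), and the netrin gene Ntn4, with 0.26 (adjusted p = 0.304). Cxcl12 passed with Tbx3 6 left out (-0.49, adjusted p = 0.0453), and with Tbx3 6 and Control 4 left out (-0.55, adjusted p = 0.0193). Of 41 intracellular genes 4 rose and 1 fell (12.2%). Dpysl2 encodes collapsin response mediator protein 2, which relays semaphorin 3A signals to microtubules. Its levels were 11.14, 11.41 and 11.44 in Control (lowest, median and highest) and 11.80, 11.96 and 12.28 in Tbx3, with no overlap between the groups (log2 change 0.66, SE 0.10, adjusted p = 8.33e-05). Its relative Dpysl3 rose by 0.53 (SE 0.12, adjusted p = 0.00658). Farp2, an exchange factor that binds A-type plexins, was the gene that fell, from 7.23, 7.35 and 7.58 in Control to 6.85, 6.93 and 7.13 in Tbx3, again without overlap (log2 change -0.44, SE 0.10, adjusted p = 0.00697). The GTPase gene Rhoa rose by 0.41 (adjusted p = 0.0317) and Vav2, an exchange factor downstream of Eph receptors, by 0.39 (adjusted p = 0.0321). The calls of Rhoa and Vav2 were each lost with any of 7 single arrays left out (adjusted p of 0.102 at most), and that of Rhoa also without quantile normalization (0.36, adjusted p = 0.0918) and with median centring (0.36, adjusted p = 0.105). Dpysl2, Dpysl3 and Farp2 passed with each array left out in turn. When a gene's probes were averaged, Dpysl3 passed (0.53, adjusted p = 0.0121), and Dpysl2 (0.30, adjusted p = 0.0563), Farp2 (-0.23, adjusted p = 0.13), Vav2 (0.11, adjusted p = 0.491) and Rhoa (0.04, adjusted p = 0.877) did not. The list's count is near the background of 5.95%, with 5 of 59 (8.47%) past the threshold.

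Markers of several other cell types also differed between the groups. Of 5 measured Schwann cell markers 3 rose, Sox10, Pmp22 and Ngfr, by 0.87, 0.46 and 0.36, and the mean log2 level of the 5 was 6.83 to 7.0 in Control and 7.17 to 7.46 in Tbx3. Of 10 fibroblast markers 4 rose, Col1a1, Mfap5, Dpt and Lum, by 0.83 to 0.94, with list means of 9.60 to 10.07 and 9.95 to 10.42, while Tcf21 was dim in both groups and Col1a2 had a log2 change of -0.34 (adjusted p = 0.777). Of 8 smooth muscle and pericyte markers 3 rose (Acta2, Tagln and Myh11, by 0.76 to 0.88) and 3 fell (Rgs5, Kcnj8 and Abcc9, with log2 changes of -1.04 to -0.48), and the list means overlapped, at 7.43 to 7.64 and 7.45 to 7.81. Of 10 endothelial markers 2 fell, Flt1 and Esam, by 0.47 and 0.36, with list means of 8.69 to 8.86 and 8.63 to 8.80. The list was mixed, with 6 of the 10 at an unadjusted p under 0.05 in limma. Vwf, Eng and Emcn had log2 changes of 0.35, 0.27 and 0.24 and Tek had -0.33, and these did not pass. For Eng all 6 Tbx3 arrays lay above the Control arrays. Of 9 neuron markers Uchl1 rose by 0.72, and Th, Chat, Prph and Stmn2 lay below the median brightness. Dbh, Nefl, Nefm and Phox2a lay above it and did not pass, with log2 changes of 0.10, 0.11, -0.17 and -0.03. The neuron list means overlapped, at 5.47 to 5.62 and 5.55 to 5.70. Of 3 erythroid markers 1 rose, with list means of 8.49 to 10.54 and 10.08 to 11.36, and of 8 atrial muscle markers 4 fell. Of 6 macrophage markers 0 passed in limma, with 2 at an unadjusted p under 0.05 and list means of 7.69 to 7.96 and 7.58 to 8.06. Of 5 epicardial and mesothelial markers 0 passed, with 1 at an unadjusted p under 0.05 and list means of 7.07 to 7.50 and 7.03 to 7.31. The part of these cells in the change of any guidance gene was not tested.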

How the data were processed

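Total RNA of 6 Tbx3 and 6 Control atria was column-extracted, amplified and biotin-labelled, per the labels' protocols. The authors deposited a value per probe and array on a log scale, taken here as natural log from its range (2.63 to 10.81, the top being 49513 on base e). What background step and normalization they used, and which log base, is not given in the sources used here, and no detection p-values were used. Of 46133 rows, 10 were empty and 9 repeated another row. Division by ln 2 gave log2 values, which were quantile-normalized, since interquartile ranges differed by 20.4% between arrays, and Tbx3 minus Control was fitted in limma 3.58.1 (R 4.3.3; 28.4 degrees of freedom in all) and adjusted by Benjamini-Hochberg over 46114 probes. Gene symbols came from the platform annotation and were brought up to date against RefSeq GRCm38.p6, and 29533 probes had 1 gene symbol, 11 several and 16570 none. The number of arrays limits the precision. Chip positions of the arrays were not given, so a chip batch was not tested.

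The members, lists and pairs were chosen with earlier results of these data known. Named genes were all members past the threshold or with groups that do not overlap, all Slits, Robos, neuropilins, netrin and Unc5b, the 3 brightest others of each large family, the paired genes, and up to 6 genes of the wider pathway past the threshold. Netrin receptors of the wider pathway were named beside Unc5b after their values were seen. Alternatives covered normalization, dim-probe filters, the variance model, array weights, the replicate block, left-out arrays, the log base and averaging a gene's probes.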

Additional observations from a re-analysis of the deposited data

Results flagged for a closer look

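The 41 named guidance genes in 2 groups gave 82 sets of 6 arrays. In 9 of the 82 a single array lay far from the rest, by Dixon's 95% criterion for 6 values. Chance gives about 1 in 20, but genes share arrays, so the sets are not independent. In 5 of the 9 the array apart was Control array 3, and in each it was the high array. Log2 levels on it were 7.44 for Sema3a, 9.43 for Slit3, 7.87 for Sema3f, 7.58 for Sema4b and 7.74 for Ntn1. Over all 17655 genes Control 3 was the high array by the same measure for 128 (0.725%), and Control 4 for 182 (1.03%). Control 3 was the low array for 154 (0.872%), and Control 4 for 115 (0.651%). Among the Control arrays, Control 3 had the lowest marker means for fibroblasts (9.60), macrophages (7.69) and epicardial and mesothelial cells (7.07) and the highest for smooth muscle and pericytes (7.64). In that last list Acta2 stood at 12.62 on Control 3, its highest Control level, and Tagln at 4.96, its lowest. The part of these markers in the levels on Control 3 was not tested.

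The other four were 8.30 for Plxna2 on Control 2 (other Control arrays 7.77 to 7.93), 7.41 for Sema5a on Control 6 (7.27 to 7.32), 8.05 for Efna1 on Tbx3 3 (other Tbx3 arrays 7.49 to 7.68) and 7.02 for Efnb2 on Tbx3 6 (7.34 to 7.51).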

How the results depend on the processing

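The guidance genes past the threshold numbered 9 with the table as deposited, median centring, array weights and base 2, and all 9 were kept in each. Both dim-probe filters kept the 9 and added Efna1, Plxna2 and Sema3f, which gave 12 genes with 4 lower, and the wider pathway list then had 8 calls under the stricter filter. The fit tests fewer probes there. The intensity trend with the robust option added Efna1. Averaging a gene's probes gave 5 guidance genes, 2 of them higher, and 1 pathway gene, keeping Unc5b, Ntn1, Sema6c and Epha4 and adding Efna1, and it averages in dim probes. With each array left out in turn the counts were 1208 to 1619 over all probes, 6 to 9 for guidance genes (4 to 7 higher, 2 to 3 lower) and 3 to 7 for the pathway list. The lowest, 6, came without Tbx3 5. The pathway count was 3 without Control 5, Control 6, Tbx3 1 or Tbx3 5, each of which ended the calls of Rhoa and Vav2, and the cause was not tested. Same-numbered arrays did not deviate together (r from -0.02 to 0.0688). Correlations of this kind cannot settle whether the numbers pair animals. The replicate block gave 10 guidance genes, adding Sema3a (log2 change -0.43, adjusted p = 0.0396). No call changed direction under these alternatives. Dim probes limit what can be read for genes such as Plxna1 and Epha2.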
